A study of Homo sapiens with 27 samples.

Results

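The growth factors that macrophages are known to release were followed across untreated, LPS-treated and PBD150-pretreated U937 cells. The set had 10 genes: VEGFA, PDGFA, PDGFB, HBEGF, EREG, AREG, TGFA, HGF, IGF1 and THBS1. Members were chosen by name, as all probes that carry one of these symbols in the array platform's probe table. That gave 8 probes of 30968, 1 for each of 8 genes among 15207 named genes, and no named probe for AREG or IGF1, which are not analysed here. RNA from U937 cells, a long-used human cell line with monocytic features from a histiocytic lymphoma, was read on 27 one-colour arrays. Untreated cells, cells given lipopolysaccharide (LPS, 4 µg/ml) and cells given PBD150 (10 µM) for 2 h and then the same dose of LPS each had 3 biological replicates with 3 arrays apiece, and culture lasted 48 h. PBD150 is an inhibitor of glutaminyl cyclase, and no group with PBD150 alone was analysed here. The labels speak of macrophages but name no agent that differentiated the line, and they do not say whether replicates were separate cultures, so p-values measure the spread between these samples only.

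Growth factors let macrophages drive repair. HBEGF, TGFA, EREG and AREG are ligands of the EGF receptor family, made as membrane-bound precursors that sheddases such as ADAM17 cut free. PDGFA and PDGFB dimerise and act on fibroblasts and smooth muscle, VEGFA acts on blood vessel endothelium, HGF on epithelium through MET, and IGF1 on many tissues through IGF1R. THBS1 encodes thrombospondin-1, a matrix protein that restrains vessel growth and can activate latent TGF-beta.

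Levels below are quantile-normalised log2 intensities, averaged over the 3 arrays of a replicate, and differences are on the same log2 scale with n = 3 replicates in each group. A probe counted as measured on an array where it exceeded 3 times the root mean square of that array's values below 0, a noise limit of 12.9 to 18.7 intensity units. Of the 8 probes, 5 exceeded it on all 27 arrays. Untreated replicate 1 had dimmer arrays, with median intensities of 41.5 to 46.8 against 69.6 to 74.9 in the other untreated replicates. Of 12 monocyte and macrophage markers 10 had a probe, and 9 of them were above the noise limit on all arrays of every group. Their summed level ranged from 10600 to 11450 in untreated replicates, from 139600 to 147900 after LPS, and from 146600 to 152500 after PBD150 and LPS. A sum follows its brightest genes: 6 of the 10 passed as higher with LPS and 0 as lower, with a median difference of 2.59 and a range from -0.65 to 6.92. A change in RNA per cell and a change in the share of cells carrying it cannot be told apart in such bulk samples.

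**Figure D1:**
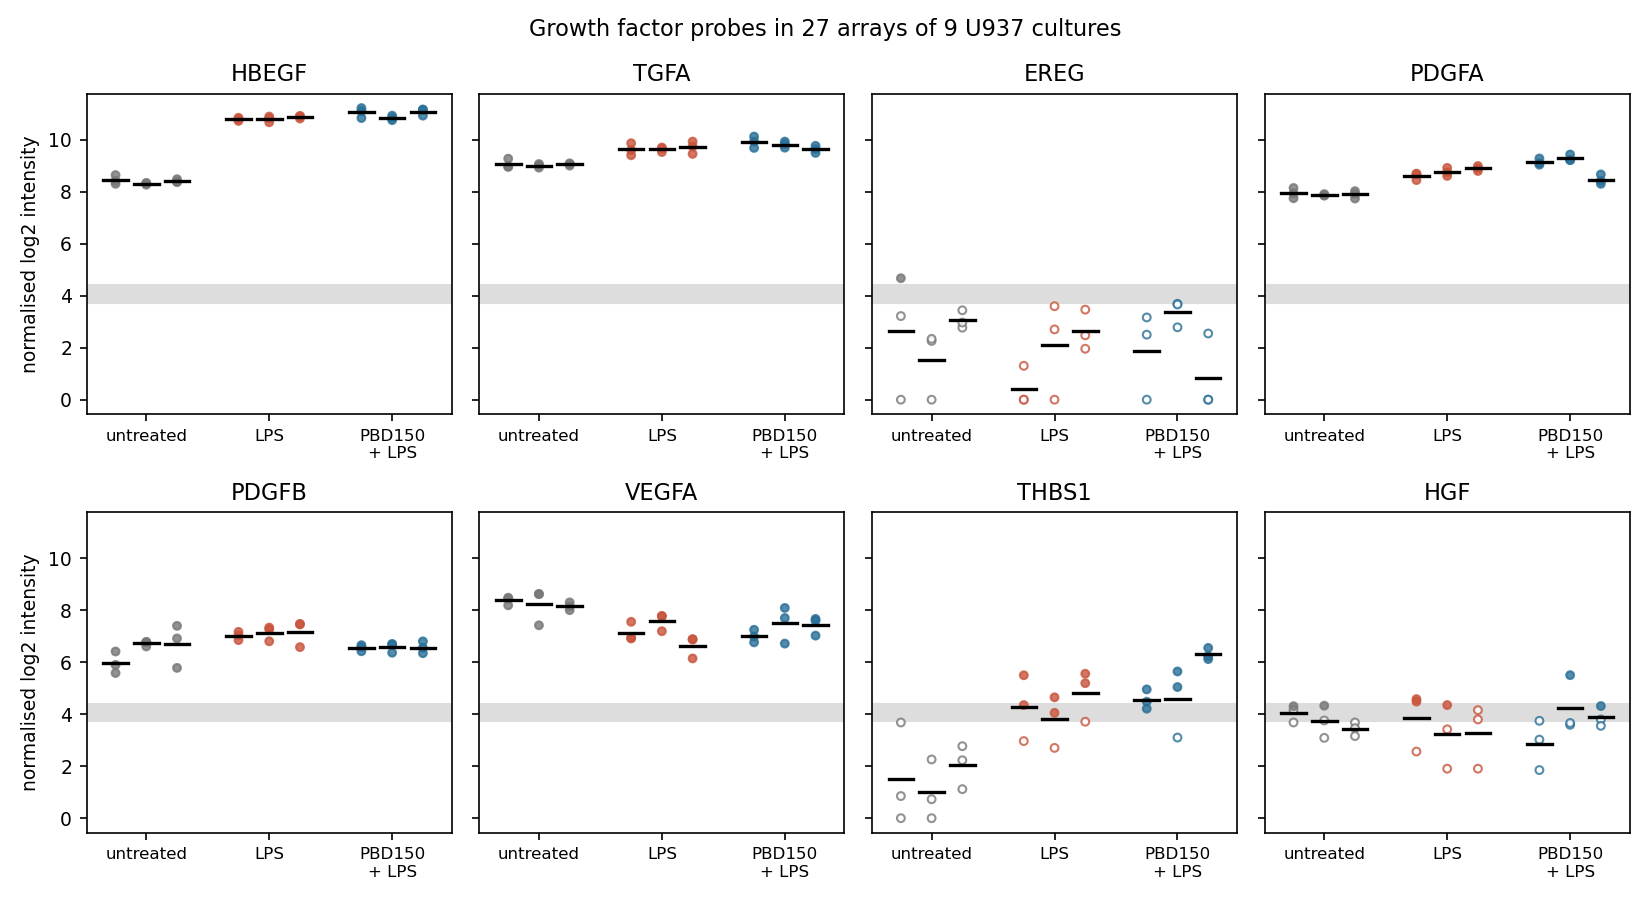
Normalised log2 intensity of the 8 growth factor probes in each of the 27 arrays, grouped by treatment and biological replicate. Points are arrays (filled where above the noise limit), black bars are replicate means and the grey band is the range of the noise limit on this scale. Replicate means of HBEGF lie between 8.30 and 8.45 untreated and between 10.78 and 11.07 in both LPS-treated groups, while EREG is above the limit on 1 array.

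LPS raised 4 of the 8 growth factor probes and lowered 1. HBEGF, THBS1, PDGFA and TGFA were higher, VEGFA was lower, and PDGFB, HGF and EREG did not pass. Of all 30968 probes, 10.6% passed as higher and 11.8% as lower, with the threshold set at a limma adjusted p of 0.05 (Benjamini-Hochberg), which makes 22.5% in either direction against 62.5% of the members. At an unadjusted p under 0.05 the share of all probes was 34.5%. The replicates of 5 members lay wholly above the untreated ones and those of 1 wholly below, against 23.4% and 20.0% of all probes (43.4% in either direction). The members' median difference was 0.63 against 0.08 for all probes. Because members were chosen with earlier results of these data known, these shares and medians are descriptions, and enrichment was not tested. The count of members called was 2 without untreated replicate 1 or 2, and 3 without untreated replicate 3, LPS replicate 2 or LPS replicate 3. Counts over all 30968 probes fell as well, from 3292 higher and 3664 lower to 2366 and 2580 without untreated replicate 1 and 2256 and 2415 without replicate 2. Of all probes called, 47.3% were higher, a share of 72.9% with values as deposited and 37.5% with median centring. The same 4 higher and 1 lower members passed when PBD150 plus LPS was set against untreated, where 12.6% of all probes were higher and 13.5% lower (26.0% in either direction, and 38.2% at an unadjusted p under 0.05). Replicates did not overlap for 4 members higher and 1 lower, against 24.0% and 21.3% of all probes (45.3% in either direction). That comparison shares its untreated replicates with the first. PBD150 plus LPS against LPS had 0 of 8 members past the threshold and a smallest adjusted p of 0.906, as it had 0% of all probes (limma). At an unadjusted p under 0.05, 1 member (PDGFB) and 1582 probes passed.

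**Figure D2:**
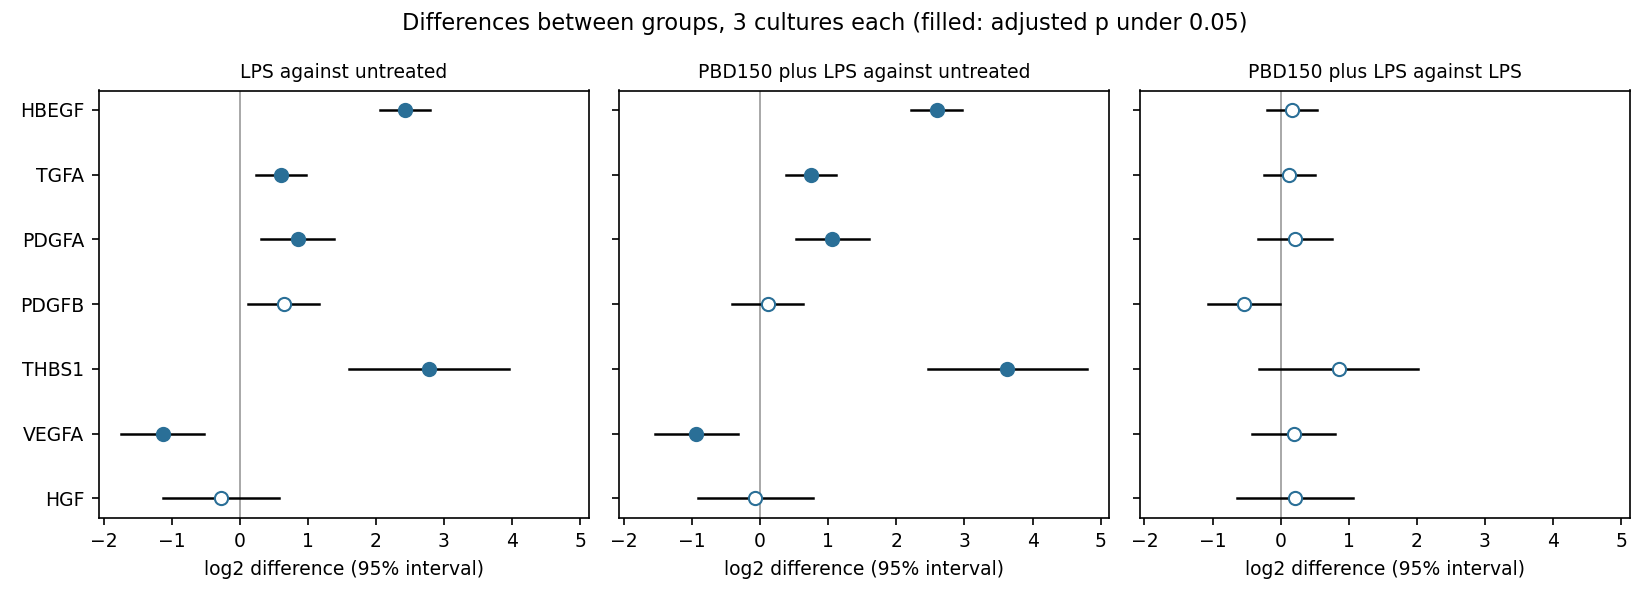
Log2 differences between groups for 7 growth factors (EREG left out), with 95% intervals from limma, 3 replicates in each group. THBS1 was above the noise limit on 0 of 9 untreated arrays, so its points against untreated, 2.78 and 3.63, depend on the floor. They correspond to 6.87-fold and 12.4-fold, above the bounds of at least 1.18-fold and 2.14-fold that the data give. Filled points passed an adjusted p of 0.05. HBEGF is at 2.43 and 2.60 against untreated cells and at 0.17 between the LPS-treated groups, and PDGFB is the member whose difference with PBD150 lies below 0.

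Promoter sequence is shown for the genes that passed as higher with LPS, and whether they share regulation was not tested. The windows are the 250 bases before a transcription start, from RefSeq on GRCh38.p14, and capitals mark matches, on either strand, to the GC box GGGCGG bound by SP1, to the EGR1 motif GCGNGGGCG or to the NF-kB consensus. EGR1 matches here overlap GC boxes.
HBEGF, chr5:140346604-140346853, minus strand: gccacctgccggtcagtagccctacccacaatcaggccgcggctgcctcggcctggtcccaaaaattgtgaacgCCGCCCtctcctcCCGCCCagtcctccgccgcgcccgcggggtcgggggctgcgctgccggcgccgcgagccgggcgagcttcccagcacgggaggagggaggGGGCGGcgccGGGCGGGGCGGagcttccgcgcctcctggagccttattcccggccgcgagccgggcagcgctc
TGFA, chr2:70553827-70554076, minus strand: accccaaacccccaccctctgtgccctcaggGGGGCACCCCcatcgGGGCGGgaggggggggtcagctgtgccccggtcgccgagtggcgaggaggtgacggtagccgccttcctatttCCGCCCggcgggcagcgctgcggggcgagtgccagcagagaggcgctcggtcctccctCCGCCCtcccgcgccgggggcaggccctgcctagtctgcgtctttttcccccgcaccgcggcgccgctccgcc
PDGFA, window 1, chr7:520227-520476, minus strand: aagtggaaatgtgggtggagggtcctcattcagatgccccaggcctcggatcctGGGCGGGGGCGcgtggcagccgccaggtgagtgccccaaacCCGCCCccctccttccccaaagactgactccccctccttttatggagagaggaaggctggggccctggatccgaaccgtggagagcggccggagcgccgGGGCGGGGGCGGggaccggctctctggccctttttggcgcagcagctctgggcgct
PDGFA, window 2, chr7:519847-520096, minus strand: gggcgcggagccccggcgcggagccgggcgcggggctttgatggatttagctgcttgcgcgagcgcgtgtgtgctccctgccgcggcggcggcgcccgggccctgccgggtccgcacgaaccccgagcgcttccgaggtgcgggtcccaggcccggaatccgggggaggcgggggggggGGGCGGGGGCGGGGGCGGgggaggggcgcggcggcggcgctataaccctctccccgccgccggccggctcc
THBS1, chr15:39580829-39581078, plus strand: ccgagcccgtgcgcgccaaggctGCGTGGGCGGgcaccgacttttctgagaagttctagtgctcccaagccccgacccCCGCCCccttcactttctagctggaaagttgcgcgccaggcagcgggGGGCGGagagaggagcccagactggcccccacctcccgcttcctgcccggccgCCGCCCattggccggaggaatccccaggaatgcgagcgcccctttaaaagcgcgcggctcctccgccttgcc
The HBEGF window held 5 GC boxes and no EGR1 match, the TGFA window 3 GC boxes and 1 NF-kB match, and the THBS1 window 4 GC boxes and 1 EGR1 match. PDGFA has several annotated starts, and both windows shown held 2 EGR1 matches, with 4 and 3 GC boxes. Of 35114 windows of the same length, 42.6% held a GC box, 8.41% an EGR1 match, 9.96% an NF-kB match and 6.57% the AP-1 motif TGANTCA, which was found in none of the 5 windows printed. Windows of other annotated starts are not shown: that of TGFA held no match to any of the 4 motifs, and those of PDGFA held 1 and 5 GC boxes and no other match. The windows printed for these genes are thus those with an NF-kB or EGR1 match, so the shares over all windows are no like comparison for them. VEGFA and PDGFB have no sequence here.

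Among the EGF receptor ligands, HBEGF had the clearest change. Its untreated levels were 8.45, 8.30 and 8.41. With LPS they were 10.78, 10.79 and 10.87, and with PBD150 plus LPS 11.05, 10.83 and 11.07. Every LPS-treated replicate lay above every untreated one, and the LPS-treated groups overlapped each other. LPS raised HBEGF 5.38-fold (difference 2.43 ± 0.16, SE, limma adjusted p = 4.22e-05), and with PBD150 plus LPS it was 6.05-fold above untreated (2.60 ± 0.16, limma adjusted p = 2.65e-05). The deposited values, before scaling between arrays, averaged 298 ± 36.1 intensity units (SD, n = 3) in untreated cells. After LPS the average was 2050 ± 71.2 (SD, n = 3), and 1996 ± 410 (SD, n = 3) where PBD150 came first. Arrays of the same replicate differed by an SD of at most 0.20.

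TGFA, which binds the EGF receptor itself, moved less. Its levels were 9.06, 9.0 and 9.05 untreated, 9.62, 9.62 and 9.70 with LPS, and 9.91, 9.81 and 9.63 with PBD150 plus LPS. Untreated replicates again lay below all LPS-treated ones. The rise was 1.53-fold with LPS (0.61 ± 0.16, limma adjusted p = 0.027) and 1.68-fold with PBD150 plus LPS (0.75 ± 0.16, limma adjusted p = 0.01). The LPS call was lost without any 1 of the untreated replicates (adjusted p = 0.0788, 0.105 and 0.0854 without replicates 1, 2 and 3), without LPS replicate 2 (0.0685) or 3 (0.0776), and with median centring in place of quantile normalisation (0.45, adjusted p = 0.174). The difference itself ran from 0.59 to 0.63 over the left-out replicates. EREG, which encodes epiregulin, was above the noise limit on 1 array of 27, from untreated replicate 1, with intensities of -7.60 to 18.5 over all groups, so no fold is given.

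PDGFA rose and PDGFB did not pass the threshold. PDGFA, the A chain of platelet-derived growth factor, had levels of 7.94, 7.87 and 7.89 untreated, 8.60, 8.75 and 8.89 with LPS, and 9.13, 9.28 and 8.46 with PBD150 plus LPS. All LPS-treated replicates lay above the untreated range, and PBD150 plus LPS replicate 3 was the lowest of the treated ones. LPS raised it 1.80-fold (0.85 ± 0.24, limma adjusted p = 0.0342) and with PBD150 plus LPS it was 2.09-fold above untreated (1.06 ± 0.24, limma adjusted p = 0.0116). Like that of TGFA, the LPS call was lost without any 1 untreated replicate (adjusted p = 0.085, 0.104 and 0.0947), without LPS replicate 2 (0.0861) or 3 (0.104) and with median centring (0.72, adjusted p = 0.0778), while the call for PBD150 plus LPS held under all 19 alternatives run.

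PDGFB, the B chain, had untreated levels of 5.96, 6.72 and 6.69. With LPS they were 7.01, 7.13 and 7.16, and with PBD150 plus LPS 6.55, 6.58 and 6.56. The LPS replicates lay above all others, and the PBD150 plus LPS replicates lay inside the untreated range. LPS minus untreated was 0.65 ± 0.23 (limma adjusted p = 0.0795), a value that passed as deposited (1.07, adjusted p = 0.0499), with a pseudocount of 16 (0.55, adjusted p = 0.041) and with all arrays fitted and culture as a random block (0.65, adjusted p = 0.0441). As deposited, without scaling between arrays, the median over all probes was higher too, 0.41 in place of 0.08. The low untreated value belongs to replicate 1, whose arrays were dim. After normalisation that replicate was the highest untreated one for HBEGF (8.45), TGFA (9.06), PDGFA (7.94) and VEGFA (8.37). Whether dimness bears on its PDGFB level was not tested. Arrays of untreated replicate 3 differed by an SD of 0.83 for PDGFB. Without untreated replicate 1, LPS minus untreated was 0.40 and PBD150 plus LPS minus untreated turned from 0.11 to -0.14.

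PDGFB was also the 1 member whose replicates did not overlap between the LPS-treated groups, where the PBD150 replicates of 3.69% of all probes lay wholly above and of 4.29% wholly below (7.98% together). PBD150 plus LPS minus LPS was -0.54 ± 0.23 (95% interval -1.06 to -0.01, limma unadjusted p = 0.0451, adjusted p = 0.906), and 5.11% of all probes had an unadjusted p under 0.05. The adjusted p ran from 0.438 to 1 over the alternatives, and the difference from -0.65 to -0.47. On single arrays the intensities overlapped, from 99.6 to 204 after LPS alone and from 79.3 to 111 where PBD150 came first.

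VEGFA, the main angiogenic factor of the set, fell with LPS. Its levels were 8.37, 8.22 and 8.15 untreated, 7.13, 7.58 and 6.63 with LPS, and 6.99, 7.50 and 7.42 with PBD150 plus LPS. No treated replicate reached the untreated range, and the treated groups overlapped. The level was 2.19-fold lower with LPS (-1.13 ± 0.27, limma adjusted p = 0.0167) and 1.92-fold lower with PBD150 plus LPS (-0.94 ± 0.27, limma adjusted p = 0.0324). Arrays of 1 replicate disagreed more here than for HBEGF, with an SD of 0.69 in untreated replicate 2 and 0.71 in PBD150 plus LPS replicate 2. The LPS call was lost as deposited (-0.79, adjusted p = 0.0693) and without untreated replicate 1 (-1.07, adjusted p = 0.0611) or 2 (-1.14, adjusted p = 0.054). The call for PBD150 plus LPS was lost as deposited (-0.71, adjusted p = 0.0932), without untreated replicate 1, 2 or 3 (0.0982, 0.0866 and 0.0722) and without PBD150 plus LPS replicate 1 or 2 (0.11 and 0.0546).

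THBS1 rose from below the noise limit. It exceeded the limit on 0 of 9 untreated arrays, 6 of 9 with LPS and 8 of 9 with PBD150 plus LPS. Levels were 1.51, 1.00 and 2.04 untreated, 4.27, 3.80 and 4.82 with LPS, and 4.55, 4.59 and 6.30 with PBD150 plus LPS. All treated replicates lay above all untreated ones, and PBD150 plus LPS replicate 3 stood above the rest, with intensities of 74.0 to 89.3 on its 3 arrays. Since untreated cells give only a bound, THBS1 was at least 1.18-fold higher with LPS and at least 2.14-fold higher with PBD150 plus LPS. For these bounds the mean of the brighter group was set against an untreated mean of 4.05, in which each array's value was raised to its lowest level above noise. The bounds were not tested. The limma tests used the means with a floor of 1, 4.30 against 1.51 (adjusted p = 0.00516) and 5.15 against 1.51 (adjusted p = 0.00118). With a floor of 16 intensity units in place of 1, neither passed (0.59, adjusted p = 0.416, and 1.25, adjusted p = 0.0777). Megakaryocytes and platelets also carry THBS1 and PDGF, though all samples here came from the U937 line. Of 5 measured markers of that lineage 1 passed as higher with LPS, the chemokine gene PPBP (6.55 ± 0.35, limma adjusted p = 1.68e-05), and 0 as lower. Their median difference was 0.46, with 3 values above 0 and 2 below, from -0.91 to 6.55. Their summed level, which follows the brightest genes, ranged from 859.6 to 923.4 in untreated replicates. It ranged from 23620 to 66140 after LPS and from 52580 to 66040 after PBD150 and LPS. PF4 was at -0.26 (adjusted p = 0.394) and GP1BA was above the noise limit on no array of any group. Whether these marker genes relate to the THBS1 level was not tested.

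HGF, a ligand of MET, stayed close to the noise limit in every group. It was measured on 2 of 9 untreated arrays, 3 with LPS and 2 with PBD150 plus LPS. Its levels were 4.05, 3.72 and 3.43 untreated, 3.87, 3.22 and 3.28 with LPS, and 2.87, 4.25 and 3.89 with PBD150 plus LPS, and the 3 groups overlapped. The differences from untreated, -0.27 ± 0.37 and -0.07 ± 0.37, did not pass (limma adjusted p = 0.653 and 0.919).

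The study's title asks about glutaminyl cyclase activity, and PBD150 plus LPS against LPS is the comparison that bears on it. For the called members it gave 0.17 ± 0.16 for HBEGF, 0.13 ± 0.16 for TGFA, 0.21 ± 0.24 for PDGFA, 0.19 ± 0.27 for VEGFA and 0.85 ± 0.51 for THBS1, each with a limma adjusted p of 0.906. HGF was at 0.21 ± 0.37 (limma adjusted p = 0.919), and EREG, under the noise limit on all arrays of both groups, did not pass (limma adjusted p = 0.939). The 95% intervals put the ratio of PBD150 plus LPS to LPS at 0.868 to 1.45 for HBEGF, 0.849 to 1.42 for TGFA, 0.795 to 1.69 for PDGFA and 0.749 to 1.74 for VEGFA. That of THBS1 was wide, 0.802 to 4.05, and its difference was 0.27 without PBD150 plus LPS replicate 3. These intervals use 1 spread for all groups, although the median SD over all probes was 0.206 in untreated cells, 0.365 after LPS and 0.373 after PBD150 and LPS. Fitted on the LPS-treated groups alone, the SE was larger for the called members. It was 0.21 for HBEGF, 0.22 for TGFA, 0.29 for PDGFA, 0.32 for VEGFA and 0.53 for THBS1. That of PDGFB was smaller, 0.21 in place of 0.23.

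Lists of related genes are given by counts, to be read against all probes, of which 10.6% were higher and 11.8% lower with LPS and 12.6% and 13.5% with PBD150 plus LPS. Among 16 early growth response and AP-1 factors, 6 rose with LPS and 1 fell, with a median of 0.66 over the list. EGR1, the zinc finger factor named in the motif above, went from 11.54 to 8.09 (-3.45 ± 0.24, limma adjusted p = 4.77e-05) and was at 8.18 with PBD150 plus LPS. FOSL2, an AP-1 subunit, rose by 1.69 ± 0.18 (adjusted p = 0.000327), ATF3, a stress-induced factor, by 1.49 ± 0.20 (adjusted p = 0.000951) and KLF6 by 1.23 ± 0.19 (adjusted p = 0.0024), though no other KLF6 probe passed. FOSB, FOSL1, JUNB and JUND, further AP-1 subunits named after their values were seen, were at -0.48, 0.35, 0.03 and 1.06 and did not pass. The calls kept their direction under both other scalings, with 8 higher and 1 lower as deposited and 6 and 1 with median centring. With PBD150 plus LPS against untreated, 7 were higher and 1 lower, or 5 and 1 with median centring, where FOS and SP1 were lost.

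Of 18 measured sheddases and activating proteases 5 rose with LPS and 0 fell, with a median of 0.63, where 22.5% of all probes were called in either direction. These enzymes free growth factors from the membrane or activate their precursors. Against untreated, 7 rose and 0 fell with PBD150 plus LPS, or 4 and 0 with median centring. PLAU, urokinase, which can activate pro-HGF, rose by 1.90 ± 0.29 (limma adjusted p = 0.00197). ADAM8, a metalloprotease of myeloid cells, rose by 1.38 ± 0.22 (adjusted p = 0.00246) and MMP7, which can shed HBEGF, also passed (adjusted p = 0.00313). Its mean was 5.61 with LPS and 2.98 untreated, the latter under the arrays' noise limit of 3.72 to 4.39 on this scale and measured on 4 of 9 arrays, so the size of its rise depends on the floor. RHBDF2, the iRhom2 partner that carries ADAM17 to the cell surface, rose by 1.38 ± 0.25 (adjusted p = 0.00488) and ADAM10 by 0.84 ± 0.16 (adjusted p = 0.00593). ADAM17 itself was at 0.21 ± 0.26 (adjusted p = 0.628). As deposited 8 of the 18 rose and with median centring 5, and none fell under either.

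Of 16 measured receptors of these ligands, 1 rose and 1 fell with LPS. IGF1R, the IGF1 receptor, went from 10.72 to 9.73 (-0.99 ± 0.27, limma adjusted p = 0.0321), a call lost as deposited and not shared by its other probe, and PDGFRB, a PDGF receptor, rose by 0.79 ± 0.22 (adjusted p = 0.0329), a call lost with median centring. ERBB2, a co-receptor for EGF family ligands, was at 0.48 (adjusted p = 0.0956). NRP1, a VEGF co-receptor, did not pass (adjusted p = 0.122). It was above the noise limit on 7 of 9 arrays with LPS and 1 of 9 untreated, so no size is given. With PBD150 plus LPS against untreated, IGF1R was at -1.39 ± 0.27 (adjusted p = 0.00631), PDGFRB at 0.93 ± 0.22 (adjusted p = 0.0143) and ERBB2 at 0.66 ± 0.18 (adjusted p = 0.0277). The PDGFRB and ERBB2 calls were lost with median centring, and the IGF1R call was again not shared by its other probe.

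Of 16 measured other ligands of the same families, 2 rose and 1 fell with LPS, with a median of 0.07 (-0.06 with median centring). VEGFB rose by 0.96 ± 0.23 (limma adjusted p = 0.0166) where VEGFA fell, and a further VEGFB probe also passed as higher. THBS3 rose by 1.66 ± 0.29 (adjusted p = 0.00377) and THBS4, from the same family as THBS1, fell, with a difference of -1.78 ± 0.18 (adjusted p = 0.000274). With PBD150 plus LPS against untreated they were at 1.14, 1.64 and -2.17, and each passed. THBS4 was above the noise limit on 5 of 9 arrays with PBD150 plus LPS, so the size of that fall rests in part on values under the limit. VEGFB, THBS3 and THBS4 kept direction and call as deposited and with median centring. PDGFD, a PDGF receptor ligand, did not pass (limma adjusted p = 0.226). It was above the noise limit on 3 of 9 arrays with LPS and 4 of 9 untreated, so no size is given.

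Of 18 binding proteins and inhibitors 3 were higher and 3 lower with LPS, beside 10.6% and 11.8% of all probes. LRIG1, which promotes degradation of EGF receptors, rose by 2.89 ± 0.32 (limma adjusted p = 0.000423), though its other probe did not pass. SPINT1, an inhibitor of the HGF-activating proteases, rose by 1.39 ± 0.30 (adjusted p = 0.0109). IGFBP4, an IGF-binding protein, passed as higher (adjusted p = 0.00614) with means of 4.27 with LPS and 2.43 untreated, but was measured on 6 of 9 arrays with LPS and 1 of 9 untreated, so no size is given. IGFBP2 was at -0.98 ± 0.15 (adjusted p = 0.00224), IGFBP7 at -0.95 ± 0.18 (adjusted p = 0.00589) and SPRY2, which dampens receptor tyrosine kinase signalling, at -1.07 ± 0.29 (adjusted p = 0.0294), and all 3 fell. The falls of IGFBP7 and SPRY2 were not called as deposited.

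VEGFA is a known target of the hypoxia-inducible factors, so other hypoxia response genes were set beside it. Of 21 measured hypoxia response genes 3 passed as higher with LPS and 0 as lower, with a list median of -0.13. Differences ran from -1.99 to 3.68, with 9 above 0 and 12 below. ADM, which encodes the vasodilator adrenomedullin, rose by 3.68 ± 0.39 (limma adjusted p = 0.00033), NDRG1 by 1.62 ± 0.23 (adjusted p = 0.00134) and PFKFB3, an activator of glycolysis, by 1.42 ± 0.24 (adjusted p = 0.00336), though the other PFKFB3 probe did not pass. HIF1A was at 0.20 ± 0.34 (adjusted p = 0.736), SLC2A1, the glucose transporter, at -0.01 (adjusted p = 0.975) and ARNT, the HIF partner subunit, at 0.74 (adjusted p = 0.0836). The list median was 0.22 as deposited and -0.26 with median centring, and the 3 calls held under both. In PBD150 plus LPS against LPS, 0 genes of any of these lists passed (limma), with list medians from -0.18 to 0.19.

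**Figure D3:**
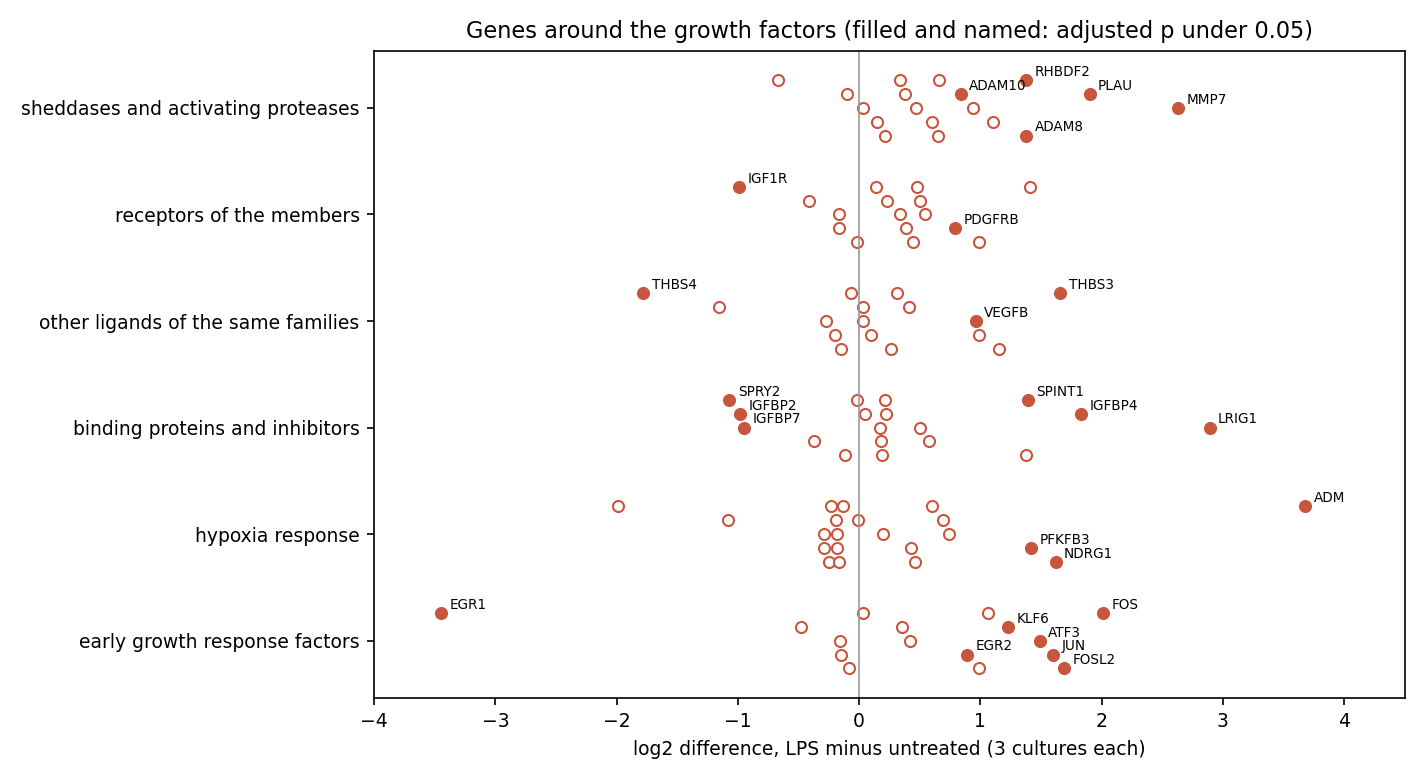
Log2 difference between LPS and untreated cells for each measured gene of the 6 lists around the growth factors, 3 replicates in each group. Filled, named points passed an adjusted p of 0.05; vertical offsets within a list carry no meaning. Sheddases and activating proteases have 5 genes called to the right and 0 called to the left, and EGR1 lies at -3.45, with FOS, FOSL2, JUN and ATF3 called to the right and FOSB, FOSL1, JUNB and JUND not called.

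Over the 9 replicates, the named gene whose pattern was most like that of HBEGF was TREM2, a myeloid lipid receptor, with a Pearson correlation of 0.999 among 9266 candidates with a mean at or above that of the median probe. Group means of TREM2 were 6.58 in untreated cells, 9.88 after LPS and 10.04 after PBD150 and LPS. For TGFA it was OTUD5 (0.998), for PDGFA FAM167B (0.996), for THBS1 FPR2, a formyl peptide receptor (0.980, resting in part on untreated THBS1 levels under the noise limit), and for VEGFA INSIG1, a regulator of sterol synthesis (0.977). INSIG1 had means of 12.61, 10.80 and 10.99 in the same order. These correlations are descriptions over points that share groups and arrays.

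**Figure D4:**
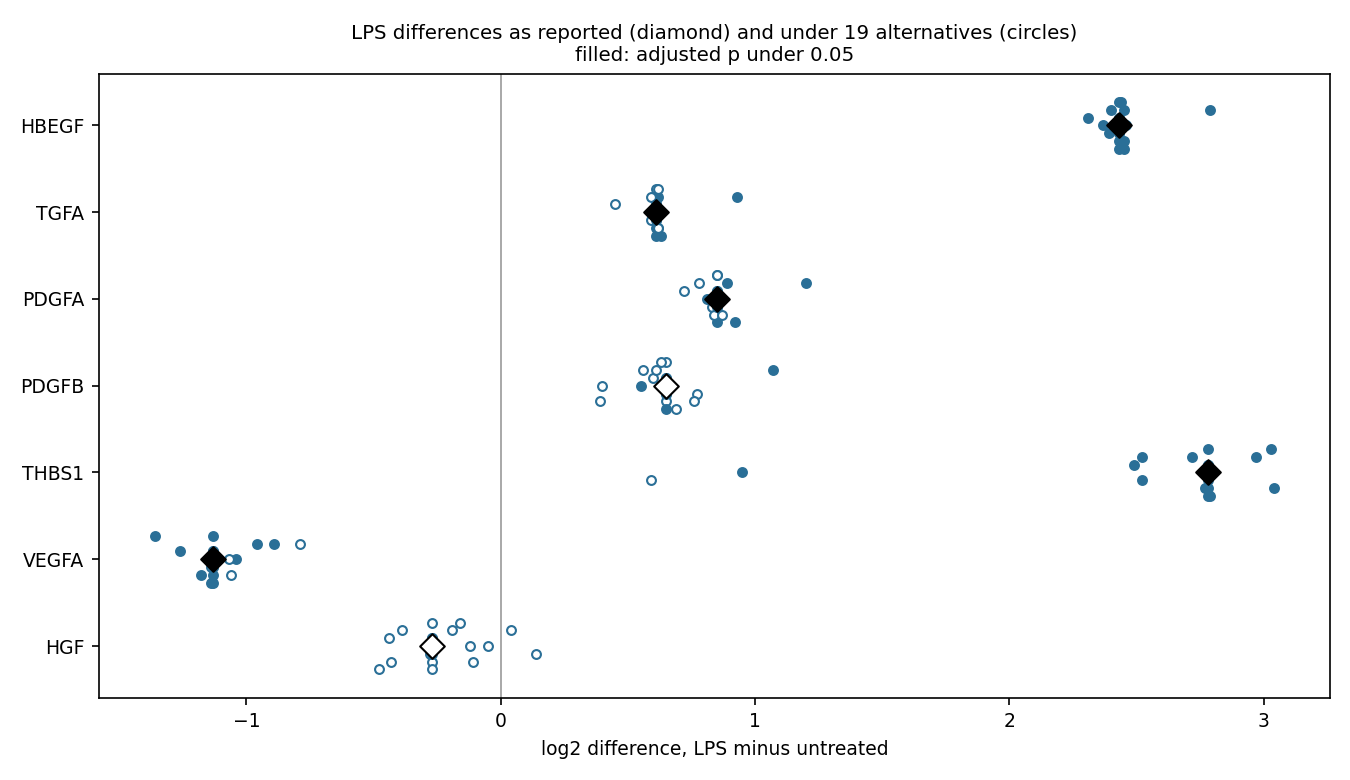
Log2 difference between LPS and untreated cells for 7 growth factors as reported (diamonds) and under 19 alternatives (circles), filled where the adjusted p was under 0.05. HBEGF stays between 2.31 and 2.79 and is called throughout, TGFA and PDGFA keep their direction but lose the call under 8 alternatives each, and THBS1, whose untreated level is only a bound, is at 0.59 with the higher floor.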

How the data were processed

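Expression was measured in U937 cells on one-colour arrays read in the Cy5 channel. The deposited table holds linear intensity values, 1 per probe and array. What scanner, background correction or scaling made them is not stated per the labels' protocols. Some deposited values lie below 0. No per-sample column was left unused (0).

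Intensities were floored at 1 (4.35% to 7.59% of values on an array), log2 transformed, quantile normalised over 27 arrays and averaged over the 3 arrays of a biological replicate. limma 3.58.1 in R 4.3.3 fitted group means over 9 replicates with no block, two-sided, with Benjamini-Hochberg adjustment over 30968 probes at 0.05; the script was tested on simulated data. Precision is limited by the 3 biological replicates in each group. Of the probes 17397 had 1 symbol and 13571 were unnamed here. Genes outside the set were represented by their brightest probe.

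Members and lists were chosen with earlier results of these data known. The text names every member, up to 4 genes of a list with the smallest p for LPS against untreated, and the 1 gene most like each member that passed. HIF1A, SLC2A1, ADAM10, ADAM17, SPINT1, SPRY2, PPBP, PF4 and GP1BA were named after their values were seen. Other marker classes (T, B, endothelium, fibroblast, epithelium) had 1, 1, 1, 2 and 1 genes higher with LPS, of 5, 3, 5, 6 and 3 measured, and B had 1 lower. Alternatives covered scaling, floor, filter, block, weights and left-out replicates.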

Additional observations from a re-analysis of the deposited data

Results flagged for a closer look

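Of 21 sets of 9 arrays, 1 set had an array far from the others. Chance gives such a gap in about 1 of 20 sets of independent values. Each set here holds 3 technical arrays of each of 3 replicates, so that rate need not hold. TGFA in untreated biological replicate 1 read 9.27 on array 3, where the next highest array of the group read 9.09 and the lowest 8.92, a gap of 0.517 of the range.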

How the results depend on the processing

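For LPS against untreated, 5 members passed; median centring gave 3, the replicate block 3, and untreated replicate 1 left out before normalisation (chosen after seeing the data) 2. Without 1 replicate the count ran from 2 to 5, lowest without untreated replicate 1 or 2. HBEGF kept its call and direction under 19 of 19 alternatives in both comparisons with untreated. The replicate number showed no pairing (correlations of same-numbered deviations from -0.219 to 0.036), and under the replicate block PDGFA (adjusted p = 0.0752) and TGFA (0.0806) lost the LPS call and VEGFA (0.0563) that for PBD150 plus LPS. For PBD150 plus LPS against untreated 4 to 5 members passed, and TGFA was not called with median centring (0.54, adjusted p = 0.102). Against LPS 0 members passed under any alternative, while over all probes a floor of 16 called 0 higher and 1 lower and the random block 1 and 13.

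These values changed sign, none of them called. HGF turned to 0.04 as deposited and 0.14 with a floor of 16 for LPS, and for PBD150 plus LPS against untreated to 0.13 as deposited, 0.02 with a pseudocount of 16, 0.16 with a floor of 16, 0.09 without untreated replicate 1, 0.10 with it out before normalisation and 0.33 without PBD150 plus LPS replicate 1 (-0.36 to 0.33 over left-out replicates). PDGFB there turned to -0.14 without untreated replicate 1, by either route, and 0.00 with array weights (-0.14 to 0.24 over left-out replicates). For PBD150 plus LPS against LPS, HBEGF was -0.06 and TGFA -0.07 as deposited, VEGFA -0.05 without LPS replicate 3 (-0.05 to 0.42 over left-out replicates) and HGF -0.08 without PBD150 plus LPS replicate 2 (-0.08 to 0.61). The causes were not tested. Over all probes, LPS against untreated had 3292 higher and 3664 lower, 5935 and 2205 as deposited (median 0.41, not 0.08) and 2279 and 3806 with median centring (-0.07); PBD150 plus LPS against untreated had 3887 and 4174, 5051 and 3069, and 2635 and 4256.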
